A study of Mus musculus with 6 samples.

Results

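The collagen gene family was taken here as every mouse gene whose symbol reads Col, a number, a and a number, and it holds 44 genes in the RefSeq table used for names. Of these, 43 had a probe on the array, and 34 entered the test, since at least 3 of the 6 arrays measured a probe of theirs well above background. In all, 25777 genes and unnamed transcripts were tested. RNA came from the vascular stromal fraction of the mesenteric fat pad, the cells that remain when collagenase-digested fat is freed of floating adipocytes and red cells. All mice were male C57BL/6JHamSlc-ob/ob, a strain that lacks functional leptin and becomes obese, so that the controls carry the mutation too. The propolis group was injected intraperitoneally 2 times a week for 12 weeks with 100 mg/kg of an ethanol extract of Brazilian propolis, the resin that bees collect. The vehicle group received the carrier, with a low concentration of DMSO and ethanol, for the same time. Each group has 3 arrays. The labels give neither the age of the mice nor the number of mice behind each sample, so p-values measure the spread between these samples.

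Collagens are the main proteins of the extracellular matrix, built from chains with a repeated glycine that wind around each other into a helix. Fibrillar collagens form the cables of connective tissue, and the fibril-associated collagens sit on their surface. Collagen IV forms the sheet-like network of basement membranes, collagen VI forms beaded filaments around cells, and collagen VII anchors epithelia to the tissue beneath. In fat, stromal progenitor cells are a major source of the fibrillar chains, and collagen IV and VI surround the adipocytes.

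Levels are given as the log2 of a gene's intensity over the 75th percentile of its array, every ± is an SD with n = 3, and a difference is the propolis mean minus the vehicle mean on that scale. That percentile lay between intensities of 459.4 (vehicle 2) and 729.0 (propolis 1), and the arrays had 61.1% to 66.7% of their spots well above background. Fibroblast and adipose progenitor markers, which define the stromal part of this fraction, were well above background for all 10 of 10 genes. Their summed level overlapped between groups, at 1245 to 1426 times the 75th percentile on vehicle and 1121 to 1503 on propolis arrays. Pancreatic acinar markers stood high in vehicle 2 (a summed level of 275.3, against 0.716 to 3.17 on the other arrays) and intestinal epithelial markers in vehicle 3 (503.6, against 2.88 to 18.4). B cell markers were also highest in vehicle 2 (57.5, against 2.47 to 14.5). Results are therefore also given without these 2 arrays. Fewer cells of a type and less RNA per cell cannot be told apart in such bulk samples.

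Of the 34 collagen genes, 5 rose at an adjusted p under 0.05 in limma's test over all genes and 0 fell. Over all genes tested 0.834% were called, 0.722% as higher and 0.113% as lower. The 5 were Col24a1, Col4a6, Col4a5, Col16a1 and Col27a1. At an unadjusted p under 0.05, 15 of 34 collagen genes differed upward, the 5 among them, against 7.24% of all genes. No collagen gene did so downward, against 4.48% of all genes. In 15 of 34 collagen genes the groups did not overlap, all with propolis higher, against 17.4% of all genes in either direction and 10.8% with propolis higher. At least 2-fold higher means were found in 10 of 34 (3.76% of all genes) and at least 2-fold lower means in 0 (3.92%). Of the 34, 21 had higher and 13 lower means (24 and 10 with arrays scaled on their medians), against 49.6% higher over all genes. The median difference was 0.38, against -0.0041 over all genes. Col11a1 entered the test through the propolis arrays alone. Without it, 20 of 33 genes had higher means and the median was 0.26, 14 differed upward at an unadjusted p under 0.05, 14 did not overlap and 9 were at least 2-fold higher. Leaving out 1 array at a time left 1 to 3 collagen genes called, and Col24a1 was called in each of these 6 settings. Without vehicle 2 and vehicle 3 together, which sets 1 vehicle array against 3 and takes it to vary like the propolis arrays, limma called 0 of 34 collagen genes and 0 of all genes, with 10 and 1362 at an unadjusted p under 0.05. With the slide as a block, 6 collagen genes were called, against 1.21% of all genes.

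The promoter windows of the 5 genes that rose are shown because a separate table of promoter windows holds all 5. It holds 35 of the 44 collagen genes and 31 of the 34 tested. Each window runs from 250 bases before the start of the gene to 50 after it, in GRCm38.p6, 5′ to 3′ on the strand of the gene. Capitals mark matches on either strand to CCAAT (the CCAAT box), GGGCGG (the GC box), TATAAA (the TATA box) and TGACGTCA (the cAMP response element). The last was added after the Col24a1 window had been read. No marked matches overlap in these windows.
Col24a1, chr3:145292222-145292521, + strand: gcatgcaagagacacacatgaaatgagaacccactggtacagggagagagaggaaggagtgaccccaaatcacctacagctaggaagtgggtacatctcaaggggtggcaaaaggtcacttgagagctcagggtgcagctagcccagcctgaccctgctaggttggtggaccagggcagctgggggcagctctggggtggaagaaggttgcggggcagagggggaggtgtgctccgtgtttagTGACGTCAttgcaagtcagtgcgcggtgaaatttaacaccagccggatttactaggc
Col27a1, chr4:63215162-63215461, + strand: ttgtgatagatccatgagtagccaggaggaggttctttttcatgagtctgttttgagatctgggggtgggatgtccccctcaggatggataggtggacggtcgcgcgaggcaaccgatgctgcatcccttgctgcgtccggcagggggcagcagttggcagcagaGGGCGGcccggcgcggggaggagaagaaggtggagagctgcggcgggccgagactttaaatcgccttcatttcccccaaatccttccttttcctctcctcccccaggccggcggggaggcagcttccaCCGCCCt
Col16a1, chr4:130047590-130047889, + strand: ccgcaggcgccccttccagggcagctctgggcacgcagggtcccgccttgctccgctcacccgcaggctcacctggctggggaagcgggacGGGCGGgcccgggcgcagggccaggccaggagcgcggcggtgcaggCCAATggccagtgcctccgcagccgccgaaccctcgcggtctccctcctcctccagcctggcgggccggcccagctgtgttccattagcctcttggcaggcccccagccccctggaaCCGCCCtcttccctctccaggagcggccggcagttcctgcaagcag
Col4a5, chrX:141475169-141475468, + strand: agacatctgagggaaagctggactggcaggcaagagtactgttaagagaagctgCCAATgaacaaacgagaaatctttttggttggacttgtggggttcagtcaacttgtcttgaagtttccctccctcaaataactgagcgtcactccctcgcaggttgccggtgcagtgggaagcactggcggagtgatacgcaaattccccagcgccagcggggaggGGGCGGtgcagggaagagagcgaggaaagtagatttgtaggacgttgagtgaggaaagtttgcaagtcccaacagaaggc
Col4a6, chrX:141474027-141474326, - strand: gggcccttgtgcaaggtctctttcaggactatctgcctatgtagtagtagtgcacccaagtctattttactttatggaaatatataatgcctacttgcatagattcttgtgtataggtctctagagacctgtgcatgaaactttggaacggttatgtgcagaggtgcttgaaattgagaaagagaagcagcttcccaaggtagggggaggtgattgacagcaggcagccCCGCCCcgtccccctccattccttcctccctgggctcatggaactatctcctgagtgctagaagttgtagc

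The windows differed in what they held. The Col24a1 window held the cAMP response element, a motif added after that window had been read, so this match is no finding. The element was found in 1.79% of the 32851 promoter windows in the table and in no other collagen gene's window. The Col24a1 window held neither a CCAAT nor a GC box. A GC box was found in the other 4 windows, and in the windows of 22 of 35 collagen genes, against 35.7% of all windows. CCAAT was found in those of Col16a1 and Col4a5, and in 13 of 35 collagen genes, against 37.4% of all windows. TATAAA was in none of the 5, in 5 of 35 collagen genes and in 13.6% of all windows. A match describes the letters only. Col4a5 and Col4a6 lie head to head on the X chromosome, and their windows are 842 bases apart. The windows of the neighbouring pair Col4a1 and Col4a2 on chromosome 8 share 78 bases, shown here for comparison on the + strand, where the capitals again mark a GC box.
Col4a1 and Col4a2, chr8:11312777-11312854, + strand: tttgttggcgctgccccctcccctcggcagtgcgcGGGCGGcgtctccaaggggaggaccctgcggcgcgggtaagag

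Among the fibrillar collagens, whose chains form the cross-striated fibrils, 10 of 11 genes entered and 8 of the 10 had higher means (49.6% of all genes). Col24a1 and Col27a1 rose, and 0 fell, against 0.722% of all genes called as higher and 0.113% as lower. The class had a median difference of 0.85. The other fibrillar gene, Col2a1, the cartilage collagen, was not well above background on any array.

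Col24a1 encodes a minor fibrillar chain best known from developing bone. On the vehicle arrays it measured -5.58, -4.21 and -4.01, and on the propolis arrays 2.97, 3.53 and 2.61. Every propolis array was thus far above every vehicle array. The mean went from -4.60 ± 0.86 to 3.04 ± 0.46, a difference of 7.64 or 199-fold (limma adjusted p = 0.00652). With normexp background correction, which here also added an offset of 50 to every signal, the difference was 5.59, or 48.2-fold (adjusted p = 0.000971). Of the vehicle arrays 2 of 3 measured the probe well above background. On vehicle 1 its value lay below -5.35, the lowest signal well above background there, so that the vehicle mean is in part a bound. The difference was 8.15 on slide 1, which holds replicates 1 and 2 of both groups, and 6.62 on slide 2, which holds replicate 3. With slide as a block the adjusted p was 0.0173. With 1 array left out it ran from 0.0198 to 0.0489, and the fold from 142 to 245. Without vehicle 2 and vehicle 3 the gene was at least 334-fold higher, set against the lowest signal well above background on vehicle 1, and did not pass (adjusted p = 0.192).

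Col27a1 encodes a fibrillar chain of cartilage and other developing tissues. It measured -1.05, -1.26 and -1.28 on the vehicle arrays and -0.17, 0.14 and -0.06 on the propolis arrays. The groups did not overlap, and each was tight. The mean went from -1.20 ± 0.12 to -0.03 ± 0.16, a rise of 2.25-fold (adjusted p = 0.0494). Among the 215 genes called in all, Col27a1 had the highest p. It passed in none of the 6 settings with 1 array left out, with adjusted p from 0.0841 to 0.215.

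**Figure D1:**
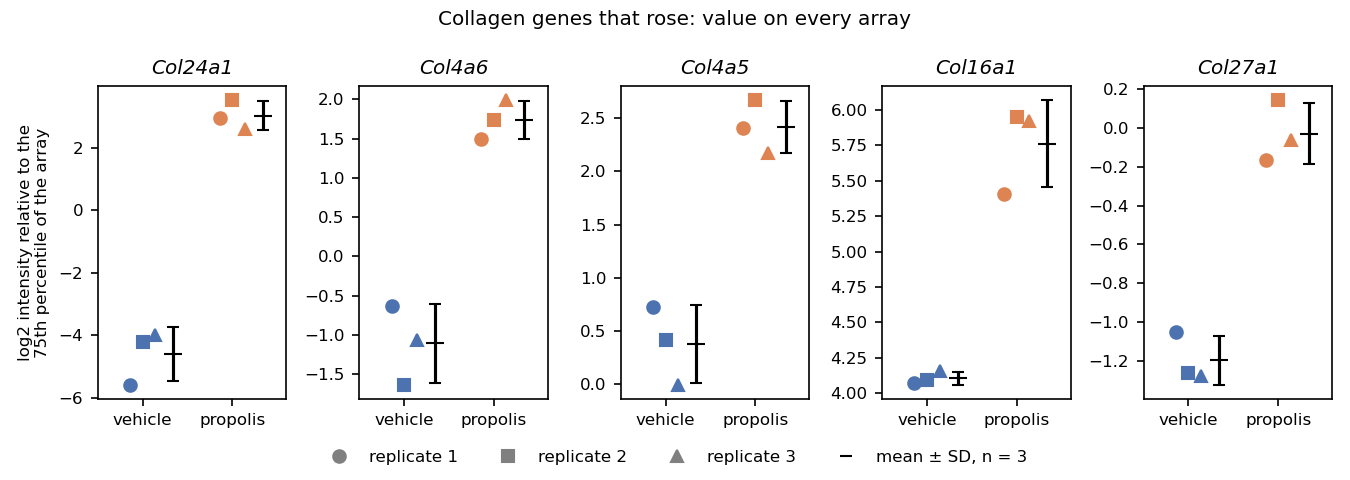
Each panel plots 1 of the 5 collagen genes that rose, with the log2 intensity relative to the array's 75th percentile on the y axis (each panel has its own scale) and the 2 groups on the x axis. Points are arrays, shaped by replicate number, and bars are the mean ± SD of 3 arrays. In every panel the 3 propolis arrays lie above the 3 vehicle arrays, from 2.25-fold apart for Col27a1 to a difference of 7.64 for Col24a1.

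Collagen I and III, the abundant fibrillar collagens of most connective tissue, differed less than these and did not pass. Col1a1 measured 6.69, 6.57 and 6.49 in vehicle and 6.96, 7.11 and 7.54 in propolis. Col1a2, which encodes the partner chain, measured 7.92, 7.84 and 7.81 in vehicle and 8.27, 8.67 and 8.85 in propolis. Col3a1 measured 7.54, 7.42 and 7.41 in vehicle and 7.70, 7.96 and 8.19 in propolis. For each of these genes all propolis arrays lay above all vehicle arrays, as for 10.8% of all genes tested. The differences were 0.62 for Col1a1 (adjusted p = 0.313), 0.74 for Col1a2 (adjusted p = 0.213) and 0.49 for Col3a1 (adjusted p = 0.384). On slide 1 they were 0.41, 0.59 and 0.35, and on slide 2 they were 1.05, 1.04 and 0.78. Propolis 1 gave the lowest propolis value for each of these genes, and propolis 3 the highest.

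Collagen V chains join collagen I fibrils and limit their width, and the chains did not differ alike. Col5a1 measured 4.14, 4.08 and 4.05 in vehicle and 5.03, 5.78 and 5.22 in propolis, a difference of 1.26 (adjusted p = 0.0853). Col5a2, which lies next to Col3a1 on chromosome 1, measured 1.56, 1.59 and 0.99 in vehicle and 2.42, 2.47 and 2.13 in propolis, a difference of 0.96 (adjusted p = 0.155). For both the groups did not overlap, but neither passed. Col5a3 measured 4.77, 4.62 and 5.05 in vehicle and 4.01, 4.56 and 4.87 in propolis, with overlapping groups and a difference of -0.34 (adjusted p = 0.719).

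Collagen XI is the counterpart of collagen V in cartilage fibrils, and its measured chains were dim. Col11a1 measured -7.54, -7.44 and -7.62 in vehicle, where no array had it well above background, and -5.38, -3.44 and -5.07 on the propolis arrays, all 3 of which did. Its level was at least 1.66-fold higher in propolis, a bound that takes for each vehicle array its lowest signal well above background. The measured means were -7.53 and -4.63, and the gene did not pass (adjusted p = 0.0705). With normexp background correction and the offset of 50, the difference of Col11a1 was 0.49, or 1.41-fold (adjusted p = 0.668). The bound thus depends on the processing, and the parts of correction and offset in this were not told apart. Col11a2 measured -3.58, -3.32 and -4.38 in vehicle and -4.62, -4.11 and -4.06 in propolis, with overlapping groups (adjusted p = 0.649).

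**Figure D2:**
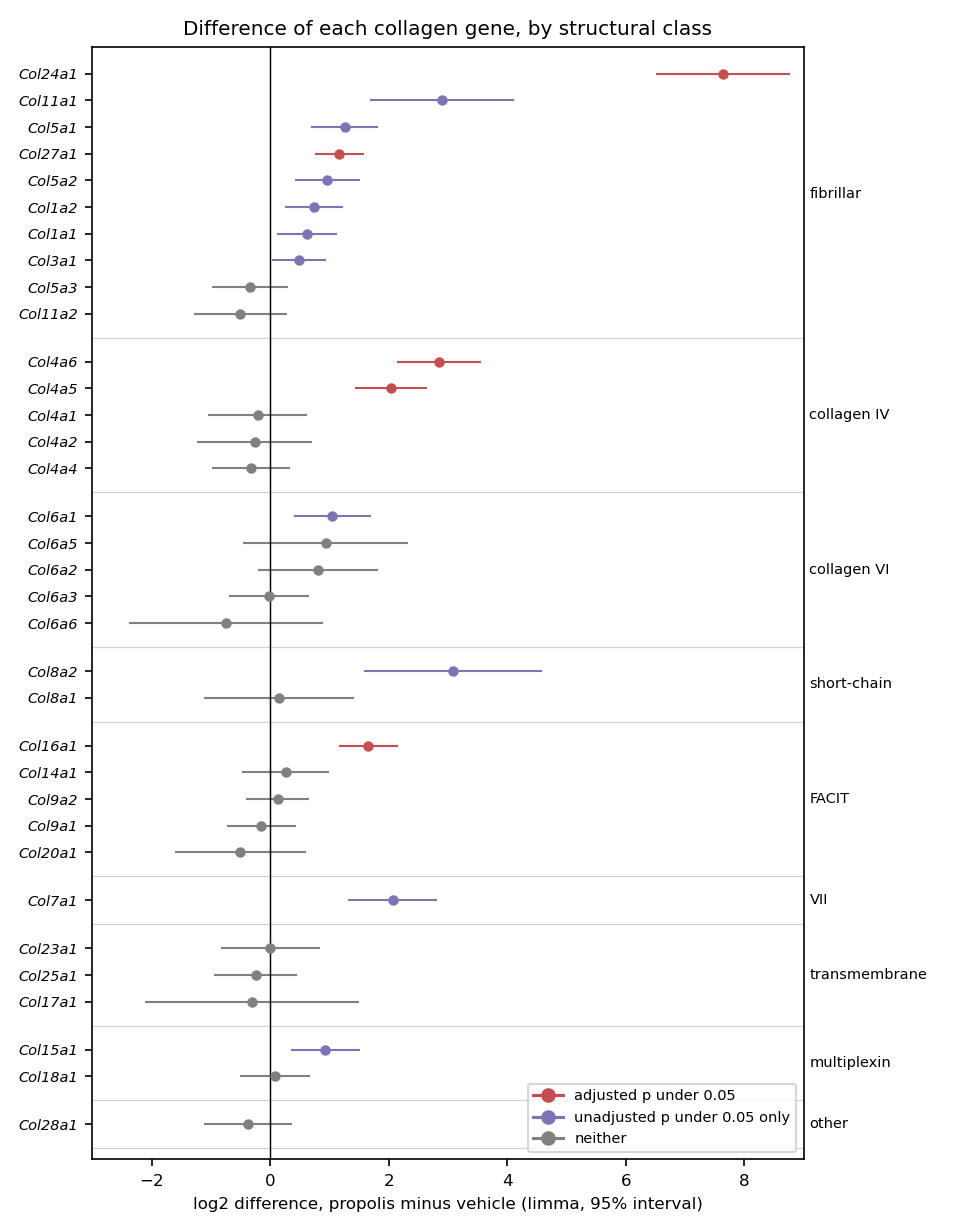
The plot gives the limma log2 difference, propolis minus vehicle, of each of the 34 tested collagen genes on the x axis with its 95% interval, grouped by structural class on the y axis. Red points passed at an adjusted p under 0.05, violet points had an unadjusted p under 0.05 only, and grey points had neither. All red and violet points lie to the right of 0, from 0.49 for Col3a1 to 7.64 for Col24a1. The vehicle level of Col11a1 was not well above background, so its plotted difference is no measured fold.

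The basement membrane collagens divided by chain. Of the 6 collagen IV genes 5 entered, Col4a5 and Col4a6 rose, and Col4a1, Col4a2 and Col4a4 had slightly lower means. Over all genes 0.722% were called as higher and 49.6% had higher means. Col4a1 and Col4a2 encode the chains present in nearly all basement membranes, while the chains of Col4a5 and Col4a6 join in a network of a more limited set of tissues, smooth muscle among them. Col4a3 was well above background on 1 array, a propolis array, and was not tested.

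Col4a5 measured 0.72, 0.41 and -0.0038 in vehicle and 2.41, 2.67 and 2.17 in propolis. The mean went from 0.38 ± 0.36 to 2.42 ± 0.25, a rise of 4.11-fold (adjusted p = 0.0299). Col4a6, measured by probe A_52_P516409, stood at -0.64, -1.63 and -1.06 in vehicle and 1.50, 1.73 and 1.99 in propolis. Its mean went from -1.11 ± 0.50 to 1.74 ± 0.24, a rise of 7.21-fold (adjusted p = 0.0173). For both genes all propolis arrays lay above all vehicle arrays. The other Col4a6 probe, A_52_P447196, was well above background on all 6 arrays but differed by 0.27, from -1.87 to -1.60. The mean of the probes differed by 1.56 and did not pass, so the rise of Col4a6 rests on 1 of its 2 probes. Col4a5 passed in none of the 6 settings with 1 array left out (adjusted p from 0.0583 to 0.134), and Col4a6 in 1, without vehicle 1 (0.0445 to 0.0965 over all 6). Differences were 1.97 and 2.75 on slide 1 and 2.18 and 3.05 on slide 2.

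Col4a1 measured 4.73, 4.25 and 4.93 in vehicle and 4.65, 3.75 and 4.87 in propolis, and Col4a2 measured 4.25, 3.80 and 4.69 in vehicle and 3.99, 3.30 and 4.68 in propolis. The groups overlapped for both. Their differences of -0.21 (95% interval -1.06 to 0.63) and -0.26 (-1.23 to 0.71) turned to 0.12 and 0.09 without propolis 2, the array with the lowest value of each. Col4a4 differed by -0.32 (adjusted p = 0.736). Within each array, Col4a5 minus Col4a1 was higher in propolis by 2.25 and Col4a6 minus Col4a1 by 3.06, with groups that did not overlap. Col4a2 minus Col4a1 differed by -0.05 with overlapping groups.

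These within-array differences were computed for 12 pairs of chains, chosen after the values were seen, with a 2-sided exact permutation test over the arrays. With 3 arrays against 3 the smallest p possible is 0.1, so no pair can pass. Adjusted over the 12 pairs, that p came to 0.15 here. In 8 pairs the groups did not overlap. As the pairs were chosen with their values known, this count only describes them and is no test result. They were Col4a5 and Col4a6 each with Col4a1, Col4a6 with Col4a5 (0.81), Col5a3 with Col5a1 (-1.59) and Col5a3 with Col5a2 (-1.30). Also among the 8 were Col6a3 with Col6a1 (-1.07), Col8a2 with Col8a1 (2.93) and Col18a1 with Col15a1 (-0.85). Col1a1 with Col1a2 (-0.12), Col5a2 with Col5a1 (-0.29) and Col6a2 with Col6a1 (-0.24) overlapped between groups.

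**Figure D3:**
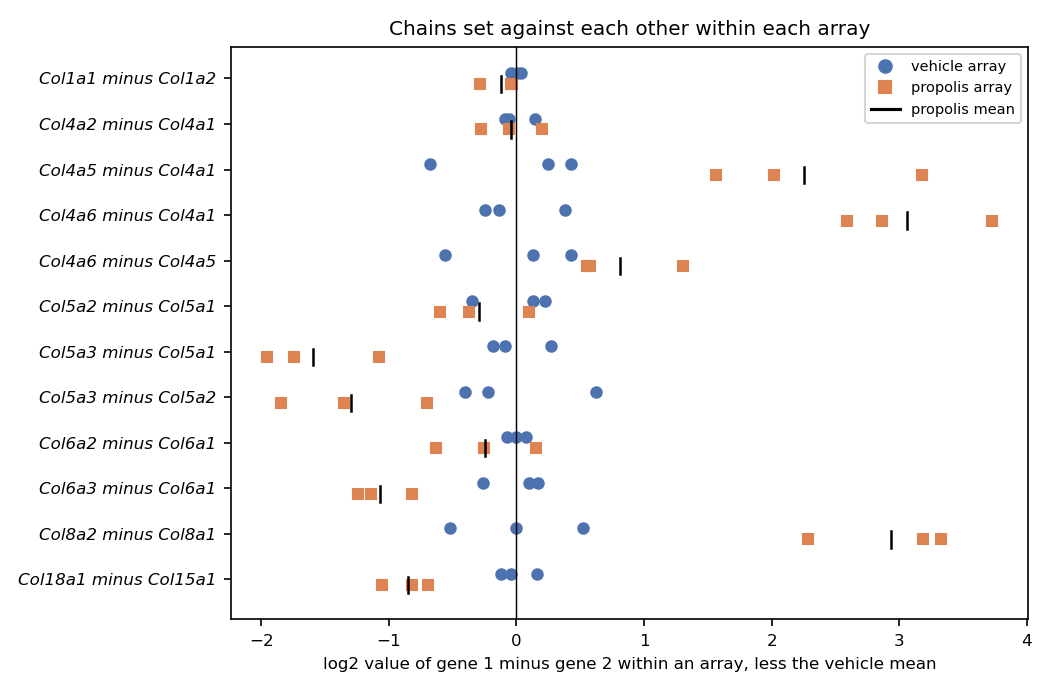
For 12 pairs of collagen chains the x axis gives the log2 value of the first gene minus that of the second within each array, less the mean of the vehicle arrays. Circles are vehicle arrays, squares propolis arrays and vertical bars the propolis means. The propolis squares of Col4a5, Col4a6 and Col8a2 set against Col4a1, Col4a1 and Col8a1 lie to the right of all vehicle circles, by 2.25, 3.06 and 2.93 on average.

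Collagen VI, whose filaments surround adipocytes and stromal cells, had 5 of 6 genes tested and 0 called, with 1 at an unadjusted limma p under 0.05. Over all genes 0.834% were called and 11.7% had such a p. Col6a1 measured 6.43, 6.33 and 6.82 in vehicle and 7.16, 7.59 and 7.98 in propolis, a difference of 1.05 without overlap (adjusted p = 0.179). Col6a2, its neighbour on chromosome 10, measured 4.02, 3.99 and 4.56 in vehicle and 4.19, 5.001 and 5.80 in propolis, a difference of 0.81 with overlap (adjusted p = 0.552). Col6a3, which encodes the long chain whose end fragment is the adipokine endotrophin, measured 5.73, 5.70 and 5.76 in vehicle and 5.12, 5.97 and 6.04 in propolis. Its difference was -0.02, with a 95% interval of -0.69 to 0.65. The sign depended on the scaling: it was 0.14 when arrays were scaled on their medians. Col6a5 differed by 0.94 and Col6a6 by -0.75, both with overlapping groups. Col6a4 was not well above background on any array.

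Among the fibril-associated collagens, 5 of 9 genes entered and Col16a1 rose, against 0.722% of all genes called as higher. Col16a1 encodes a chain found at the edges of fibrils and near basement membranes. It measured 4.07, 4.09 and 4.16 in vehicle and 5.41, 5.95 and 5.93 in propolis. The vehicle arrays lay close together, and all propolis arrays were above them. The mean went from 4.11 ± 0.04 to 5.76 ± 0.31, a rise of 3.15-fold (adjusted p = 0.0307). Its 3 probes differed by 1.66, 1.63 and 1.16, the last with overlapping groups, and the mean of the probes, at 1.48, did not pass. With 1 array left out it passed in 1 of 6 settings, without propolis 1 (adjusted p from 0.0421 to 0.147 over all 6). Col14a1, a fibril-bound collagen of fat stroma, differed by 0.26 (adjusted p = 0.809), Col9a2 by 0.13, Col9a1 by -0.15 (0.0284 with quantile scaling) and Col20a1 by -0.50, all with overlapping groups. Col19a1, Col22a1 and Col9a3 were not well above background on any array, and no probe matched Col12a1.

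Col7a1, the anchoring fibril collagen, fell just short of the threshold. It measured -1.14, -1.21 and -0.98 in vehicle and 0.29, 1.15 and 1.42 in propolis. The groups did not overlap, and the difference was 2.06 with a 95% interval of 1.31 to 2.82 (adjusted p = 0.0516). With slide as a block Col7a1 passed (adjusted p = 0.0473).

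The short-chain collagen VIII forms hexagonal networks in vessel walls and the cornea. Col8a2 measured -0.22, 0.59 and -0.44 in vehicle and 1.86, 4.26 and 3.04 in propolis. The groups did not overlap, but the propolis arrays were spread widely, and the difference of 3.08 did not pass (adjusted p = 0.102). The other Col8a2 probe stood well above background on the 3 propolis arrays and no vehicle array, and was at least 6.10-fold higher in propolis (means of -5.49 and -2.62). Col8a1, the partner gene, measured 1.52, 1.81 and 0.26 in vehicle and 0.80, 2.16 and 1.08 in propolis, with overlapping groups and a difference of 0.15. Col10a1, the collagen of hypertrophic cartilage, was not well above background on any array.

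Col15a1 and Col18a1 encode the multiplexins, proteoglycan collagens of basement membrane zones. Col15a1 measured -1.65, -1.89 and -1.73 in vehicle and -1.25, -0.78 and -0.45 in propolis, a difference of 0.93 without overlap (adjusted p = 0.188). Its other 2 probes differed by 0.78 and 0.56, both with overlapping groups. Col18a1, the source of endostatin, measured 3.49, 3.04 and 3.12 in vehicle and 3.04, 3.14 and 3.70 in propolis, a difference of 0.08 with overlap (adjusted p = 0.938).

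The transmembrane collagens, which span the cell surface, showed 0 calls and 0 unadjusted p under 0.05 in limma's test. Over all genes the shares were 0.834% and 11.7%. Col23a1 differed by -0.0013 (0.16 with median scaling), Col25a1 by -0.25 and Col17a1, an epithelial hemidesmosome collagen, by -0.31, each with overlapping groups. Col28a1, whose protein is found near peripheral glia, differed by -0.38 (adjusted p = 0.727). Col13a1 and Col26a1 were not well above background on any array.

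**Figure D4:**
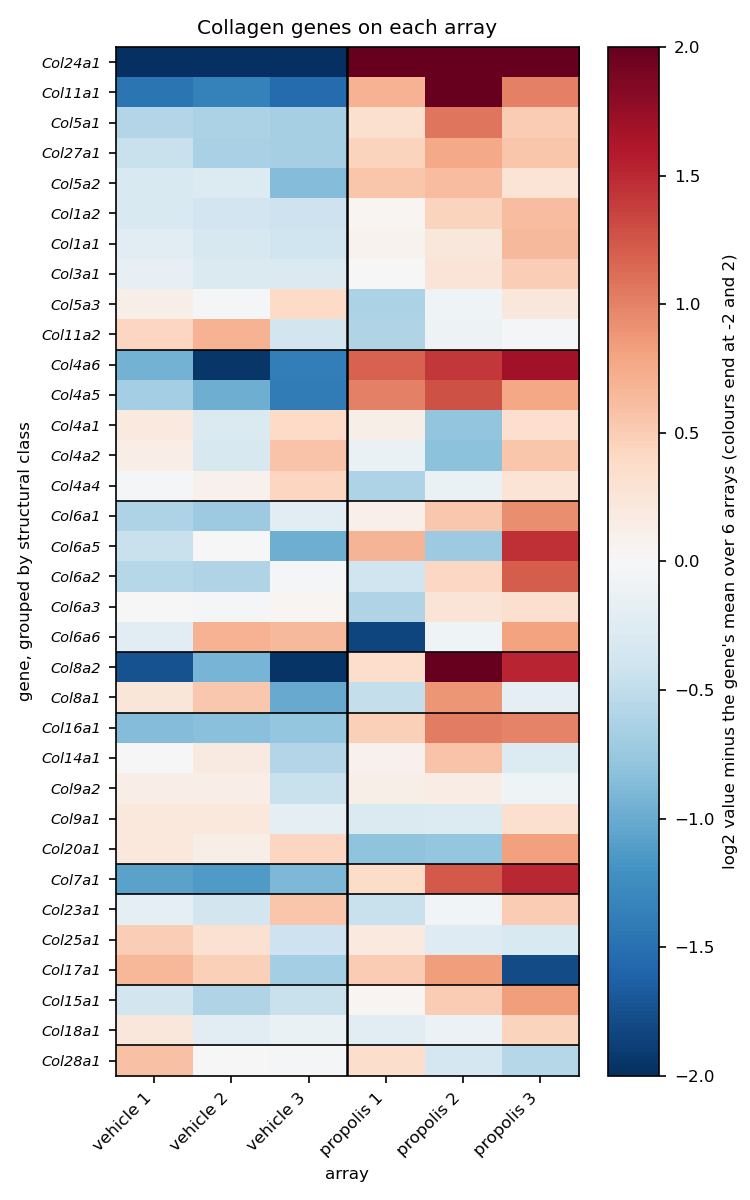
The heat map shows each of the 34 tested collagen genes (rows, grouped by structural class) on each of the 6 arrays (columns), as the log2 value minus the gene's mean over all arrays, with red above and blue below 0 and colours ending at -2 and 2. Averaged over all members, the arrays stood at -0.36, -0.38 and -0.49 in vehicle and 0.13, 0.52 and 0.58 in propolis.

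Across arrays the members did not all vary alike. Averaged over the 34 genes, the centred level was -0.36, -0.38 and -0.49 on vehicle 1, 2 and 3 and 0.13, 0.52 and 0.58 on propolis 1, 2 and 3. The mean of the fibrillar genes did not overlap between groups, at -0.77, -0.67 and -0.80 in vehicle against 0.46, 1.01 and 0.77 in propolis. Without Col24a1 and Col11a1, which had the largest differences of the class, the mean of the other 8 genes was -0.18, -0.23 and -0.41 in vehicle against 0.0235, 0.40 and 0.41 in propolis. Collagen VI genes stood at -0.37, -0.13 and -0.11 in vehicle and at -0.41, 0.08 and 0.95 in propolis, so that propolis 1 was the lowest array and propolis 3 the highest. The transmembrane genes stood at 0.32, 0.14 and -0.18 in vehicle and 0.08, 0.17 and -0.53 in propolis.

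Genes that make, modify and cross-link collagen were mostly higher. Of 34 listed, 33 were tested, 28 had higher means, 2 rose and 0 fell, with a median difference of 0.55. Over all genes 49.6% had higher means and 0.722% were called as higher. At an unadjusted p under 0.05, 17 differed upward and 2 downward, against 7.24% and 4.48% of all genes. Plod2, which encodes the lysyl hydroxylase of the collagen telopeptides, measured 0.10, -0.02 and -0.17 in vehicle and 2.97, 2.41 and 2.13 in propolis, a rise of 5.79-fold (adjusted p = 0.0172). P3h4, which encodes part of a collagen-modifying complex of the endoplasmic reticulum, measured 2.75, 2.57 and 2.43 in vehicle and 3.87, 3.96 and 3.79 in propolis, a rise of 2.45-fold (adjusted p = 0.0355). For both, every propolis array lay above every vehicle array. Plod2 passed in 2 of 6 settings with 1 array left out and P3h4 in 0 (limma adjusted p from 0.0671 to 0.175).

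Collagen receptors were split, with 8 of 10 tested, 4 higher and 4 lower means, 0 called by limma and 3 at an unadjusted p under 0.05. Of all genes 49.6% had higher means, 0.834% were called and 11.7% had such a p. Ddr1, a receptor tyrosine kinase that binds collagen, measured 0.25, 0.12 and -0.03 in vehicle and 1.82, 1.76 and 1.18 in propolis, a difference of 1.47 (adjusted p = 0.0534). Mrc2, an uptake receptor for collagen fragments, differed by 1.01 (adjusted p = 0.236). Of 11 collagen-degrading enzymes and their inhibitors, 6 had higher and 5 lower means, 0 were called by limma and 3 had an unadjusted p under 0.05. Mmp2, which encodes a gelatinase, measured 3.58, 3.76 and 3.97 in vehicle and 4.72, 5.03 and 5.60 in propolis, a difference of 1.34 (adjusted p = 0.100). The inhibitor gene Timp1 measured 4.58, 3.79 and 3.56 in vehicle and 7.25, 6.15 and 5.06 in propolis, a difference of 2.18 (adjusted p = 0.199). Neither overlapped between groups.

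**Figure D5:**
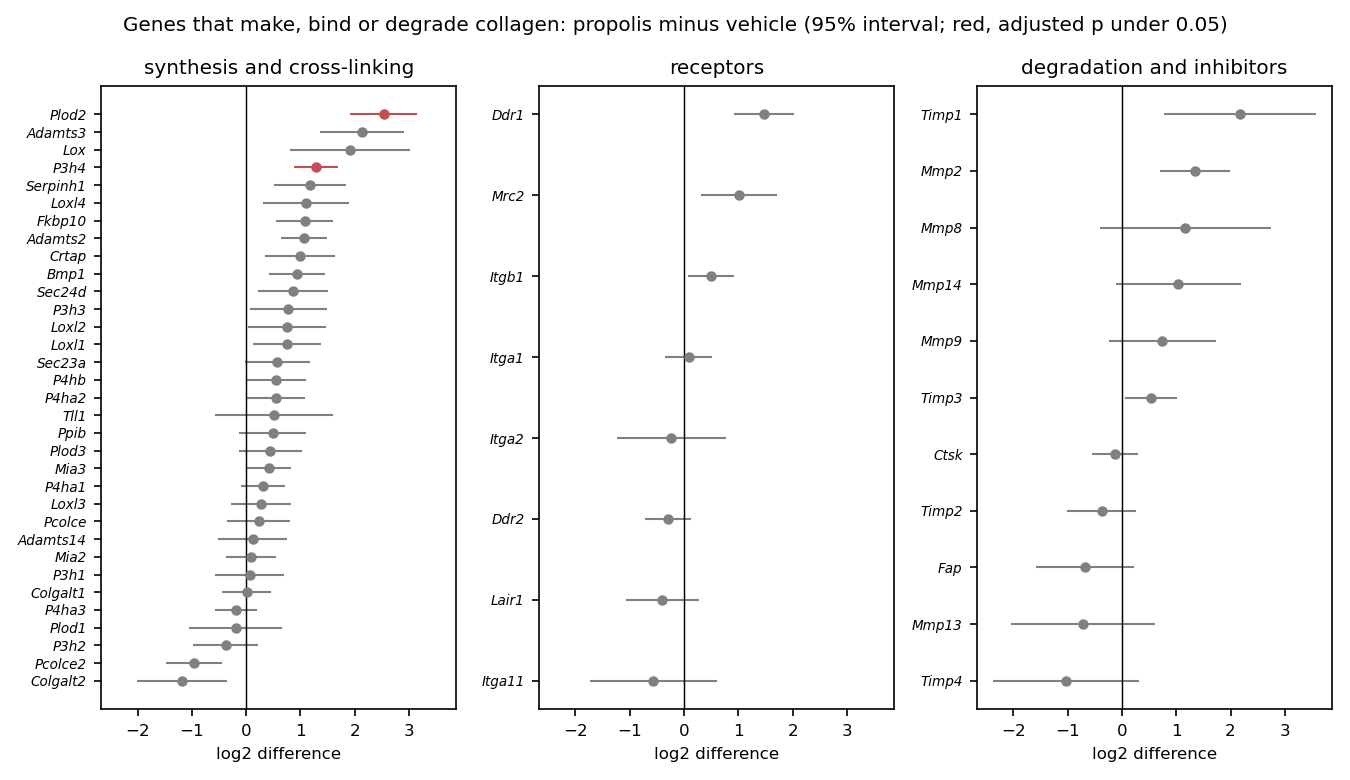
The panels plot the limma log2 difference, propolis minus vehicle, with its 95% interval on the x axis for each tested gene (y axis) of the synthesis and cross-linking, receptor and degradation lists. Red points passed at an adjusted p under 0.05. In the first panel 28 of 33 points lie above 0, with Plod2 and P3h4 in red, and the receptor and degradation panels have no red point.

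Lists of cell type markers did not all differ in the direction of the collagen genes. Of 10 fibroblast and adipose progenitor markers 3 had higher means and 0 were called. Only 1, the proteoglycan gene Lum at 0.81, had an unadjusted limma p under 0.05. Over all genes 0.834% were called and 11.7% had such a p. Of 9 mesothelial markers with a probe 8 had higher means and 2 rose, Wt1 (a difference of 1.98) and Bnc1 (2.87), against 49.6% and 0.722% of all genes. With 1 array left out Wt1 passed in 0 of 6 settings (limma adjusted p from 0.0575 to 0.144) and Bnc1 in 1. The summed mesothelial level was 31.7, 16.4 and 80.4 times the 75th percentile on vehicle 1, 2 and 3 and 58.8 to 94.6 on propolis arrays. Vehicle 3, the array with high intestinal markers, overlapped the propolis arrays, and the epithelial keratin genes Krt19 and Krt8 measured 5.24 and 4.74 there. Without it the groups did not overlap.

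Of 7 tendon and cartilage markers 6 were tested, 4 of them with higher means, and Scx and Tnmd passed. Over all genes 49.6% had higher means and 0.722% were called as higher. Scx differed by 4.90 (3.51 with normexp background correction) and passed in 1 of 6 settings with 1 array left out. Tnmd was well above background on no vehicle array and on all 3 propolis arrays, so it entered the test through the propolis arrays alone. It was at least 11.4-fold higher in propolis (means of -7.25 and -1.85, limma adjusted p = 0.0317). With normexp and the offset of 50, however, Tnmd differed by 1.84 and did not pass (adjusted p = 0.184). Sox9 differed by -0.48, Comp by -0.16, Acan by 0.26 and Chad by 0.0122, and Mkx was well above background on no array. The summed level was 1.69 to 2.50 in vehicle against 3.08 to 5.45 in propolis. Within it, Scx measured -4.30, -3.41 and -3.63 in vehicle and -0.0050, 1.69 and 1.67 in propolis. Of the 4 osteoblast markers with a probe, Ibsp was well above background on no array, Runx2 on 1 and Sp7 on 2, all propolis. The summed osteoblast level was 1.01 to 1.23 in vehicle against 7.98, 1.63 and 1.53 on propolis 1, 2 and 3, and the high value followed Alpl, a phosphatase gene also found outside bone, at 2.99 on propolis 1 against 0.66 and 0.55 on the other propolis arrays.

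Other lists overlapped between groups or were lower in propolis. Pericyte and smooth muscle markers summed to 50.4 to 116.6 in vehicle against 68.1 to 169.3 in propolis, and macrophage markers to 253.9 to 318.7 against 190.7 to 333.7. Blood endothelial markers summed to 62.4 to 89.4 against 38.8 to 68.1, with 0 of 7 called by limma and 1 at an unadjusted p under 0.05. Over all genes 0.834% were called and 11.7% had such a p. Adipocyte markers summed to 259.1 to 282.3 against 143.2 to 218.6, with 0 of 6 called and 2 at an unadjusted p under 0.05. That sum was mostly the level of 1 gene, Fabp4, which measured 8.06, 7.91 and 8.002 in vehicle. In propolis Fabp4 measured 7.70, 7.02 and 7.41. The other adipocyte markers stood at 3.59 or lower on every array, and all 6 markers had lower means in propolis. Schwann and glial markers summed to 1.67 to 2.13 against 1.32 to 1.68. The part of these cells in the collagen differences was not tested.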

How the data were processed

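RNA of 3 vehicle and 3 propolis samples was labelled with Cy3 and hybridised to 1-colour Agilent arrays on 2 slides, read with Agilent Feature Extraction 10.7.3.1 per the submitters' processing notes. Per the file headers, the scanner's processed signal is a linear intensity after background correction. The series table deposited with them has log2 values that match it, after removal of each array's 75th percentile, to within 0.0062 for the collagen probes, and served as an alternative.

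The log2 processed signal was used without non-uniform spots (no spot was saturated), as the mean per probe minus the 75th percentile over all probes of the array. Of 55681 probes 34786 passed the filter, 4 of them without a value on some array, and the probe with the highest mean stood for its gene. Symbols came from RefSeq accessions for 27235 probes through a GRCm38.p6 table, used for names and gene order. Promoter windows came from a separate table of that build. The array design refers to mm9. The test was limma 3.58.1 (lmFit, eBayes) in R 4.3.3, with Benjamini-Hochberg adjustment over 25777 genes and a threshold of 0.05, and was tested on simulated data.

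The members, lists and tests were chosen with earlier results of these data known. Values on every array are given for members with an unadjusted p under 0.05, for the main chains of collagens I, III, IV and VI, and for Col5a3, Col8a1, Col11a2 and Col18a1, which were added after their values were seen. Of pathway genes, the 2 of lowest p per list are named. The alternatives were background correction, scaling, filter, flags, probe rule, variance model, array weights, the series table, slide and replicate blocks and left-out arrays. Normexp, planned on mean signals, was run on the median signals, with an offset of 50 added to each. Such an offset shrinks the log2 differences of dim probes, and its part was not told apart from that of the background correction.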

Additional observations from a re-analysis of the deposited data

How the results depend on the processing

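The main comparison called 215 genes, 5 of them collagen genes. Without a filter on dim probes 106 and 2 were called, with array weights 3231 and 14, and with 1 array left out 11 to 94 and 1 to 3. Limma called 0 and 0 within slide 1, 2 arrays against 2, with 5856 genes and 16 collagen genes, 3 of them lower, at an unadjusted p under 0.05. It called 0 and 0 without vehicle 2 and vehicle 3, with 1362 genes and 10 collagen genes at that level. The labels do not say whether replicate numbers pair the samples. Same-numbered arrays deviated together at correlations of 0.036, 0.291 and 0.135. Propolis 2 and propolis 3 correlated best with the vehicle array of their number, but propolis 1 with vehicle 3 (0.098). So few correlations cannot settle whether the samples are paired. With a replicate block 73 genes were called, and 1 collagen gene, Col24a1. In the other 9 settings 4 to 7 collagen genes were called. Col24a1 was not tested where a probe had to stand well above background on all 6 arrays, and Col7a1 passed there.

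The median difference of the collagen genes stayed between 0.21 and 0.53 in all settings but 1. It was 0.13 without a filter, where 43 genes were counted. Scaling on array medians moved the median of all genes from -0.0041 to 0.154, and that of the collagen genes to 0.53. Members with small differences changed sign. Col6a3 was at 0.0112 with normexp, 0.14 with median scaling and 0.12 with array weights, and ran from -0.18 to 0.28 with 1 array left out. Col9a1 was at 0.0284 with quantile and 0.0067 with median scaling. Col23a1 was at 0.14, 0.16, 0.12, 0.0254 and 0.18 with quantile scaling, median scaling, array weights, slide 1 alone and without vehicle 2 and vehicle 3, and ran from -0.25 to 0.28 with 1 array left out. Col18a1 was at -0.24 with array weights, -0.17 on slide 1 and -0.19 without vehicle 2 and vehicle 3, and ran from -0.13 to 0.21 with 1 array left out. Col8a1 was at -0.19 on slide 1 and -0.17 without those arrays, and ran from -0.32 to 0.46 with 1 array left out. Col17a1 was at 0.10 on slide 1, and ran from -0.80 to 0.51 with 1 array left out. Col9a2 was at -0.071 without those arrays, and ran from -0.069 to 0.22 with 1 array left out. With 1 array left out Col4a1 ran from -0.44 to 0.12 and Col4a2 from -0.60 to 0.086. Of the settings tried for the 34 genes, 0 reversed a gene that was called.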
